A study of Mus musculus with 4 samples.

Results

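The transcripts described here are those of 10 genes whose products fill the granules or the cytosol of neutrophils or sit on the surface of these cells: S100a8, S100a9, Ngp, Camp, Ltf, Mmp8, Retnlg, Cxcr2, Pglyrp1 and Cd177. For short they are called granule genes or granule transcripts below, though the products of S100a8 and S100a9 are cytosolic. They were chosen by name, with earlier results of these data known, so the shares of all probes given beside them below are descriptive. Every probe of the array that the platform's annotation assigns to one of the 10 symbols was taken. This gave 10 of the 19057 genes named on the array and 14 of its 45281 probes. The tissue was cervical spinal cord, taken at 9 weeks of age from male mice of NC/Nga, an inbred strain prone to a skin disease that resembles atopic dermatitis. The CV-NC/Nga mice were kept under conventional conditions and had the atopic dermatitis phenotype (2 arrays), and the SPF-NC/Nga mice were kept free of specific pathogens and had a normal phenotype (2 arrays). Housing and phenotype changed together in this design, so they cannot be told apart. The labels do not say whether an array held RNA of 1 mouse or of several. Whether the spread between arrays is one between mice, between pools or technical can therefore not be told.

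Neutrophils mature in bone marrow and make their granule proteins there in waves: first those of the primary granules, such as myeloperoxidase and elastase, then those of the secondary and tertiary granules. Lactoferrin, the cathelicidin peptide and the matrix enzymes belong to the later waves, while the calprotectin subunits S100A8 and S100A9 fill the cytosol of mature cells. In a healthy spinal cord these cells are found mainly inside blood vessels, and outside the cord they lie in the marrow of the surrounding vertebrae. In bulk tissue, fewer cells of a type and less RNA per cell cannot be told apart.

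The arrays were alike in depth. Between 20334 and 20960 probes (44.9% to 46.3%) were above background on each array, meaning a detection p below 0.05 against the array's negative-control beads, and the median bead signal lay between 113.6 and 119.4. Levels below are log2 values after background correction and quantile normalization, and they compare arrays within a probe, not 1 probe with another. Of the 14 member probes, 8 were above background on all 4 arrays, 1 on 3 arrays and 5 on no array. The 9 probes that passed the filter (above background on at least 2 arrays) stood for 8 of the 10 genes. The cord itself was well represented: all 5 astrocyte, all 5 oligodendrocyte markers on the array and 6 of 8 neuronal markers passed the same filter, while the probes of Snap25 and Nefl were not above background on any array.

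Granule transcripts were highest on a single array, conventional replicate 1, and lowest on the other array of the same group. Conventional replicate 1 was the highest of the 4 arrays for 8 of the 9 tested member probes, against 23.9% of all 21065 tested probes. For 7 of the 9, each of a different gene, conventional replicate 2 was also the lowest, against 7.21% of all probes. Both SPF arrays lay between the 2 conventional arrays for these 7 genes (S100a8, S100a9, Ngp, Camp, Ltf, Retnlg and Cd177), so the groups overlapped.

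**Figure D1:**
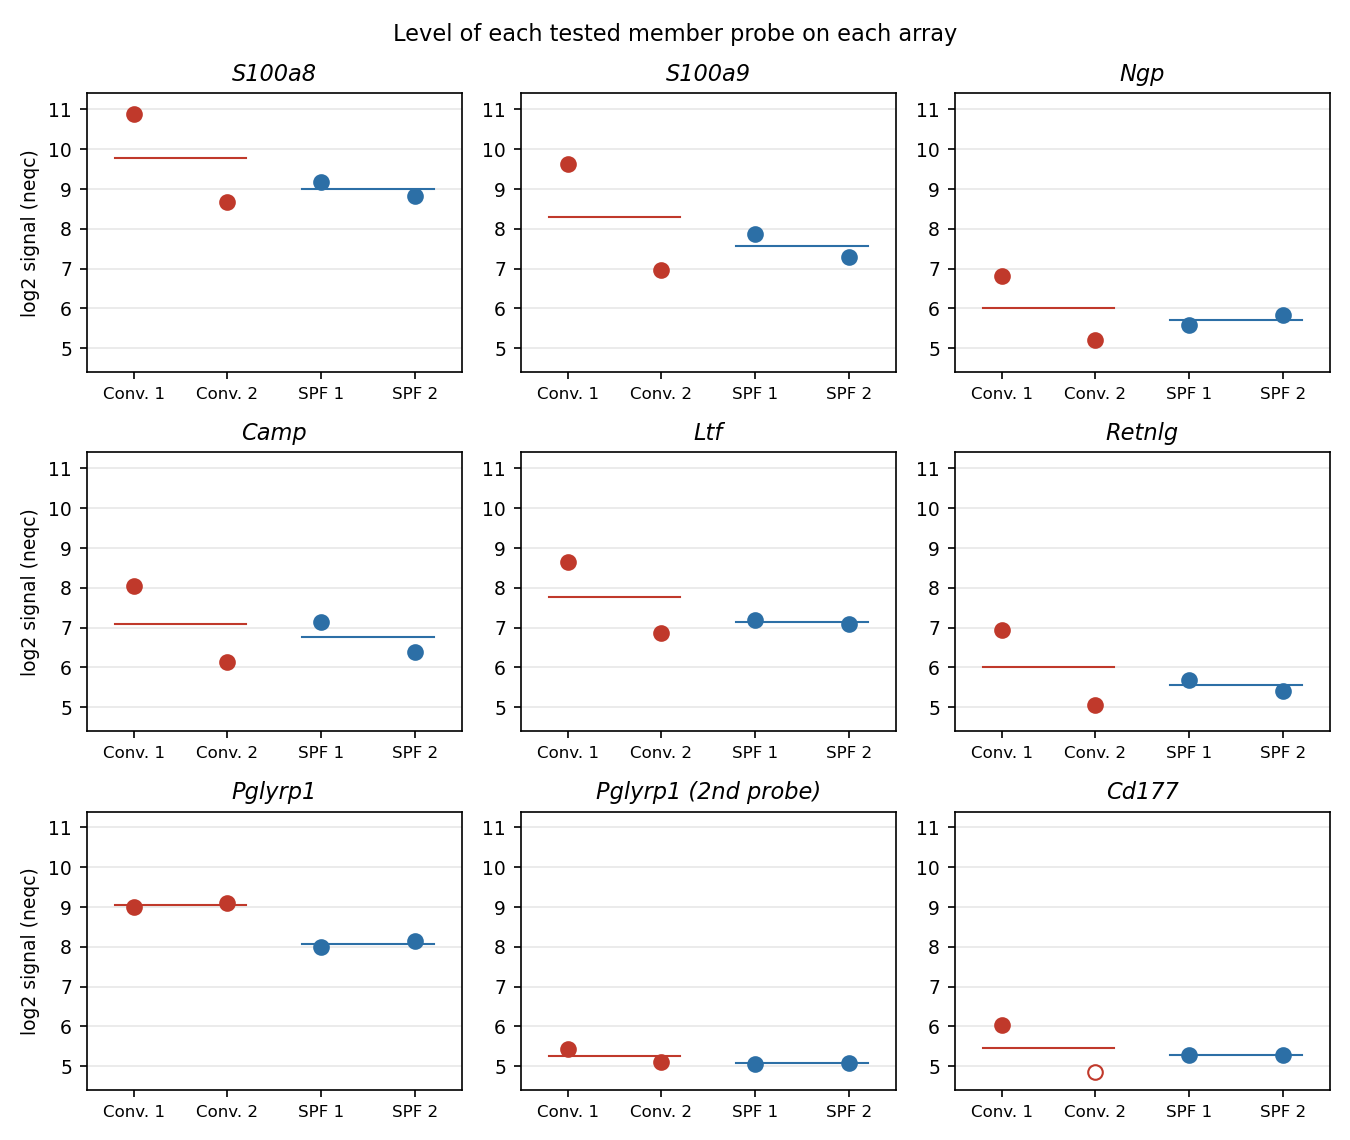
Level of each of the 9 tested member probes on each array, as log2 normalized bead signal (y axis, one scale for all panels). Filled points were above background, the open point was not, and horizontal lines are group means of 2 arrays; conventional replicate 1 is highest in every panel but that of the first Pglyrp1 probe, whose 2 conventional arrays stand at 9.01 and 9.11 and whose 2 SPF arrays stand at 7.99 and 8.14.

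S100a8 and S100a9 encode the 2 chains of calprotectin, a calcium- and zinc-binding protein that makes up much of the cytosolic protein of neutrophils and is released at sites of inflammation. The bead signal of S100a8, as deposited, was 1977 and 477.7 on conventional arrays 1 and 2, against 685.8 and 548.8 on SPF arrays 1 and 2. On the log2 scale these levels were 10.88 and 8.68 on the conventional arrays and 9.18 and 8.84 on the SPF arrays. Conventional replicate 1 stood 3.67-fold above the SPF mean, and conventional replicate 2 lay below both SPF arrays. S100a9 had log2 levels of 9.62 and 6.97 on the conventional arrays, against 7.87 and 7.28 on the SPF arrays. It showed the widest gap of all members between the 2 conventional arrays, 6.31-fold, and only 4 of the 21065 tested probes had a larger one in that direction. The mean ± SD was 9.78 ± 1.56 in conventional cord and 9.01 ± 0.24 in SPF cord for S100a8, and 8.30 ± 1.88 in conventional and 7.58 ± 0.42 in SPF cord for S100a9 (n = 2 arrays each). The SD of the conventional pair was larger than the difference between the group means for both genes.

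Camp, Ngp and Ltf encode proteins of the secondary granules. Camp gives the cathelicidin precursor from which the antimicrobial peptide CRAMP is cut, Ngp gives neutrophilic granule protein, which is related in sequence to the cathelicidins, and Ltf gives the iron-binding protein lactoferrin. The 3 genes lie on chromosome 9, with 8 protein-coding genes between Camp and Ngp and 20 between Ngp and Ltf in the RefSeq gene table of GRCm38.p6. Camp read 8.05 and 6.14 (log2) on the conventional arrays, against 7.13 and 6.39 on the SPF arrays. For Ltf the log2 levels were 8.66 and 6.88 on the conventional arrays and 7.18 and 7.09 on the SPF arrays. The 2 SPF arrays thus differed 1.07-fold for Ltf, while the 2 conventional arrays differed 3.45-fold. Ngp reached 6.82 and 5.21 on the conventional arrays, against 5.59 and 5.84 on the SPF arrays. It was the only one of the 7 genes with SPF replicate 2 above SPF replicate 1, since Cd177 had equal values there and the other 5 had SPF replicate 1 above. The order conventional 1, SPF 1, SPF 2, conventional 2 was thus shared by 5 genes and was found in 4.44% of all tested probes.

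The start regions of 4 member genes, S100a8, S100a9, Ngp and Ltf, all with matches to the letters below, are shown with the windows that RefSeq gives on GRCm38.p6, from 250 bases before to 50 after the annotated start, 5′ to 3′ on the gene's strand. Capitals mark matches, on either strand, to letters bound by C/EBP factors (TTNNGCAA), to letters bound by PU.1 (GAGGAAGT) and to the letters of a TATA box (TATAAA), wherever they lie in the window. C/EBP family members and PU.1 are the main transcription factors of granulocyte maturation.
S100a8, chr3:90668821-90669120, plus strand: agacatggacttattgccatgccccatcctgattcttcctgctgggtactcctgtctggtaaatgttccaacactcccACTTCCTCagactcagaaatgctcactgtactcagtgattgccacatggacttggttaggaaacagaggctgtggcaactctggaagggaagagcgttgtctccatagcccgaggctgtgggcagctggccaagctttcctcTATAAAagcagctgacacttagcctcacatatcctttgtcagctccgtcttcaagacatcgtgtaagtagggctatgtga
S100a9, chr3:90695672-90695971, minus strand: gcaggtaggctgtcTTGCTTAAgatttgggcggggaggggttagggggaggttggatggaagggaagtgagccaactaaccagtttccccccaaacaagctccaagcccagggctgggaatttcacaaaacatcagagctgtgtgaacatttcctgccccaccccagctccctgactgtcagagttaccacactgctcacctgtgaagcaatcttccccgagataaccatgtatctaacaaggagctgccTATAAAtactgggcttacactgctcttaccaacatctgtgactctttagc
Ngp, chr9:110419558-110419857, plus strand: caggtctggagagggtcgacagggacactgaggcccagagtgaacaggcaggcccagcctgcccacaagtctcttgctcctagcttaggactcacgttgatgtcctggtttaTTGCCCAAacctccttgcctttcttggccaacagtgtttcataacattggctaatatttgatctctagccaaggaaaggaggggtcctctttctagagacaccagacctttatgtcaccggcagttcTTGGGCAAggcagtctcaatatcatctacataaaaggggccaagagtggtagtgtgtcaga
Ltf, chr9:111019042-111019341, plus strand: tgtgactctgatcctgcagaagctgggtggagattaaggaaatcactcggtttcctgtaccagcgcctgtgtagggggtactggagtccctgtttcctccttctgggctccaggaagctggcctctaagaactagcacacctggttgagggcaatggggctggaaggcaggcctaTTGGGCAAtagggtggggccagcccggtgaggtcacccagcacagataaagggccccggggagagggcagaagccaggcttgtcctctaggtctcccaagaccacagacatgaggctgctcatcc

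The C/EBP letters were found in the windows of 5 of the 10 member genes, against 10.8% of all 32851 windows in the table, the PU.1 letters in 2 of 10 (3.2% of all windows) and the TATA letters in 4 of 10 (13.6% of all windows). The 3 motifs do not overlap each other in the windows shown. Ltf and Ngp carried the same match, TTGGGCAA, whose first base lay 75 bases before the annotated start of Ltf and 11 before that of Ngp, and Ngp held a further C/EBP match (TTGCCCAA) 138 bases before its start. The TATA letters began 30 bases before the start in S100a8 and 40 before it in Cd177, at base 1 of the transcript in S100a9, and on the minus strand 3 bases before the start in Mmp8. The windows of Camp, Cxcr2 and Pglyrp1 held none of these letters, although Camp had the same array order as S100a8, S100a9 and Ltf. Mmp8, 1 of the 5 genes with the C/EBP letters, was not above background on any array. These matches describe the sequence only, and the letters were chosen with the members' sequences in view.

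Retnlg, which encodes a resistin-like secreted protein made by mouse granulocytes, read 6.94 and 5.07 (log2) on the conventional arrays, against 5.68 and 5.42 on the SPF arrays. Cd177, a surface protein of neutrophils, in humans an antigen carried by a variable share of these cells, was measured on 3 arrays. Its better probe was above background on conventional replicate 1 and on both SPF arrays, but not on conventional replicate 2 (the detection value there was 0.135), with log2 levels of 6.05 and 4.86 on the conventional arrays and 5.28 on each SPF array. The gap between the 2 conventional arrays was 3.67-fold for Retnlg. For Cd177 it was at least 2.03-fold, with conventional replicate 2 taken at the lowest level detected on that array, and the order of the arrays held at that level. Across the 6 genes above background on all 4 arrays the gap ran from 3.05-fold to 6.31-fold, with a median of 3.72-fold. The 2 SPF arrays differed by far less, with SPF replicate 1 over SPF replicate 2 between 0.840-fold and 1.68-fold. Conventional replicate 1 stood 1.70-fold to 4.13-fold above the SPF mean, and for the 6 genes measured on all arrays conventional replicate 2 stood 1.20-fold to 1.54-fold below it.

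Pglyrp1 encodes a peptidoglycan recognition protein of neutrophil granules that binds bacterial cell walls, and its brighter probe separated the groups. That probe had bead signals of 606.6 and 617.7 on the conventional arrays, against 349.5 and 378.3 on the SPF arrays. The log2 levels were 9.01 and 9.11 in conventional cord and 7.99 and 8.14 in SPF cord. Both conventional arrays lay above both SPF arrays, as they did for 16.4% of all tested probes and for 2 of the 9 member probes, both of Pglyrp1 (the opposite order held for 14.5% of all probes and 0 members), and conventional replicate 1 was not above conventional replicate 2. The mean level was 9.06 ± 0.07 in conventional cord and 8.07 ± 0.11 in SPF cord (SD, n = 2 each), a difference of 0.99 ± 0.16 (standard error), or 1.99-fold, with a 95% interval of 0.63 to 1.36 from limma. In limma's moderated test the unadjusted p was 0.000271, the 4th lowest of all probes, and the adjusted p over all 21065 probes was 1, so the difference did not pass. The second Pglyrp1 probe, annotated to another transcript record, had log2 levels of 5.44 and 5.10 on the conventional arrays and 5.06 and 5.09 on the SPF arrays. It differed by 0.19 ± 0.22, and its detection p lay between 0.00855 and 0.0492, so the 2 probes of this gene disagree in size and in pattern: on the second, conventional replicate 1 was highest and conventional replicate 2 was close to both SPF arrays.

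The remaining probes gave no measurable level. Both probes of Cxcr2, the receptor through which neutrophils follow CXC chemokines, were not above background on any array, with detection p between 0.175 and 0.860. The single probe of Mmp8, the neutrophil collagenase, had detection p between 0.704 and 0.897. A second probe of Ltf and a second probe of Cd177 were likewise not above background on any of the 4 arrays. The second Ltf probe read between 103 and 114.5 in deposited signal, near the median signal of the arrays.

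The comparison of conventional with SPF cord asks whether granule transcripts differ between mice with and without the dermatitis phenotype. All 9 tested member probes had a positive difference (conventional minus SPF), against 51.2% of all tested probes, and the median was 0.45 log2 units, against 0.01 over all probes. None of the 9 passed limma's test at an adjusted p of 0.05, and 0 of 21065 probes did (background 0%), with 663 at an unadjusted p under 0.05 (3.15%). Among members, the brighter probe of Pglyrp1 was the only one at an unadjusted p under 0.05. The differences of the other genes were 0.77 ± 0.59 for S100a8, 0.72 ± 0.72 for S100a9, 0.63 ± 0.49 for Ltf, 0.45 ± 0.53 for Retnlg, 0.33 ± 0.56 for Camp, 0.30 ± 0.47 for Ngp and 0.17 ± 0.37 for Cd177 (standard errors). Their 95% intervals all include 0, and that of S100a9 reached from -0.96 to 2.40. With 2 arrays against 2, an exact two-sided permutation test of 1 gene cannot give a p below 0.333. In the authors' normalized table the median difference of the 9 probes was 0.17 and that of Pglyrp1 was 0.61.

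The direction rested on conventional replicate 1. Without that array the median of the 9 probes was -0.42, and 7 of 9 differences turned negative, from -0.26 for Ltf to -0.62 for Camp. These 7 signs follow from the array order given above and add no separate evidence. The fit then sets conventional replicate 2, the lowest array for these genes, against the SPF mean. Without conventional replicate 2 the median was 1.29, and S100a9 differed by 2.05 and S100a8 by 1.87. That second fit sets 1 conventional array against 2 SPF arrays and assumes that the lone array varies like the SPF pair. Camp also turned sign without SPF replicate 2, to -0.04. The brighter Pglyrp1 probe kept 0.92 to 1.07 with any 1 array left out, while the second gave 0.02 when conventional replicate 1 was left out and 0.36 when conventional replicate 2 was.

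**Figure D2:**
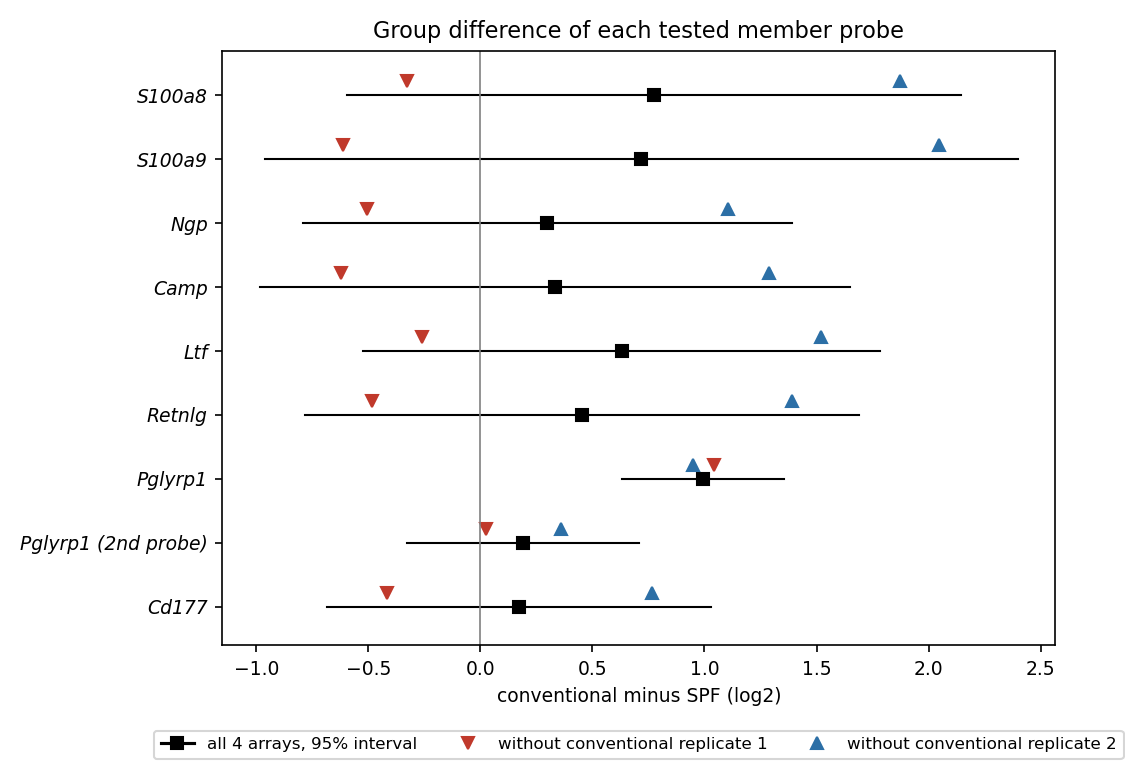
Difference between conventional and SPF cord (x axis, log2 units) for each tested member probe. Black squares with lines are limma estimates from 4 arrays with 95% intervals, and triangles leave out conventional replicate 1 (red, pointing down) or conventional replicate 2 (blue, pointing up); 7 of the red triangles lie below 0, while those of the 2 Pglyrp1 probes lie above it.

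The gap within the conventional group was rare among all transcripts. At least 1 log2 unit separated conventional replicate 1 from replicate 2 for 7 of the 9 member probes (for Cd177 the gap at the lowest detected level was 1.02), against 0.949% of all tested probes in the same direction. The converse, conventional replicate 2 above replicate 1 by at least 1 unit, held for 0 members and for 0.503% of all probes. The same step between SPF replicate 1 and SPF replicate 2 held for 0 members and 0.574% of all probes. The median of conventional replicate 1 minus replicate 2 was 1.78 over the members and -0.01 over all probes, and that of SPF replicate 1 minus replicate 2 was 0.09 over the members and 0.003 over all probes.

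**Figure D3:**
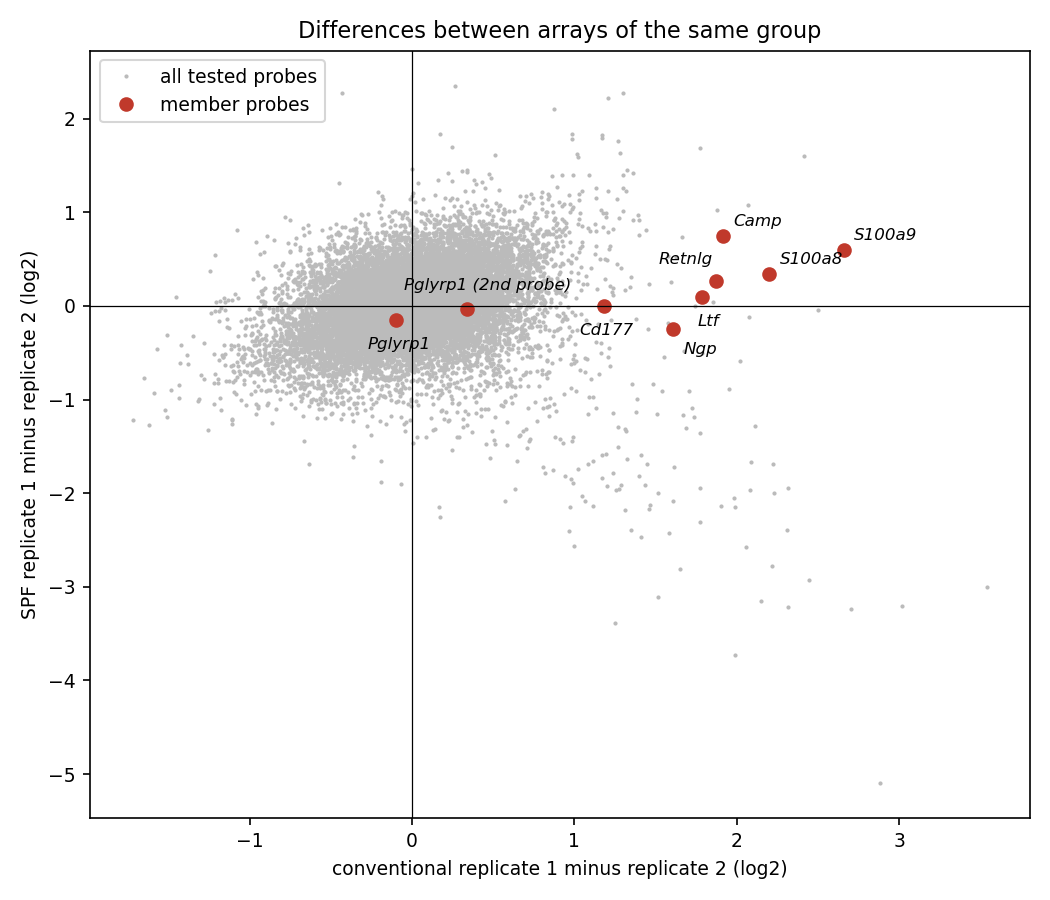
Conventional replicate 1 minus replicate 2 (x axis) against SPF replicate 1 minus replicate 2 (y axis), both in log2 units, for 21065 tested probes (grey) and the 9 member probes (red). The 7 genes of the shared profile lie between 1.18 and 2.66 on the x axis (the lowest, Cd177, uses a value not above background), and both Pglyrp1 probes lie inside the main cloud.

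With only 4 arrays a correlation between members was not computed, and likeness was described by the distance between profiles, each centred on its mean over the 4 arrays (Euclidean, log2 units, 1 probe per gene). Ltf and Retnlg were the closest pair at 0.22, S100a8 and S100a9, neighbours on chromosome 3 with 0 protein-coding genes between them, were 0.37 apart, and Pglyrp1 was at least 1.23 from every other member. The mean member profile over the 8 genes was 1.09 on conventional replicate 1, -0.55 on conventional replicate 2, -0.17 on SPF replicate 1 and -0.38 on SPF replicate 2. Of 11476 named genes, the 5 non-members closest to that mean were BC018473 (0.18), the keratin gene Krt17 (0.29), Ggt5, which encodes a gamma-glutamyltransferase (0.29), Gal, the precursor of the neuropeptide galanin (0.30), and the DNA replication clamp gene Pcna (0.38). Among members, Ltf and Retnlg lay at 0.15 and 0.20 from that mean. The other members lay farther from it than these 5 genes: Ngp 0.41, S100a8 0.47, Camp 0.48, Cd177 0.51, S100a9 0.79 and Pglyrp1 1.33. Each member is part of that mean, and the distance depends on the size of the gaps as well as on the array order. S100a8 and S100a9 shared the array order of Ltf but had wider gaps. Gal had log2 levels of 11.62 and 10.04 on the conventional arrays, against 10.36 and 9.82 on the SPF arrays. Profiles over 4 arrays have few degrees of freedom, and 3 of these genes (BC018473, Ggt5 and Pcna) were not above background on every array.

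Other neutrophil genes were read from lists given by function, and 0 of their members passed limma's test over all probes. In primary granules, made by the youngest neutrophil precursors, 4 of 7 genes on the array were tested. Conventional replicate 1 was highest in all 4, against 23.9% of all tested probes. In the other neutrophil lists, described below, it was highest less often. The counts were 3 of 6 further secondary and tertiary granule genes and 4 of 8 cytoplasmic and effector genes. They were 1 of 5 receptor and adhesion genes and 1 of 4 transcription factor genes. With conventional replicate 2 also lowest, these 4 counts were 1, 2, 0 and 1, against 7.21% of all tested probes. Mpo, the myeloperoxidase gene, read 6.83 and 5.28 (log2) on the conventional arrays, against 5.57 and 6.12 on the SPF arrays, a difference of 0.21 ± 0.47 (a further probe gave -0.23). Elane, the neutrophil elastase gene, stood at 6.08 and 5.36 on the conventional arrays and 5.10 and 5.57 on the SPF arrays (0.39 ± 0.30). Ctsc, the protease that activates the granule enzymes, differed by 0.04 ± 0.24 (further probes gave 0.12 and 0.28). For Prtn3, named after its values were seen, conventional replicate 1 (5.75) was nearly level with SPF replicate 2 (5.73). Ctsg, Ms4a3 and Bpi were not above background on any array. The median of this list was 0.12.

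Of 11 further genes of secondary and tertiary granules, 6 were tested, 4 higher and 2 lower, with a median of 0.31. Lcn2, the siderophore-binding lipocalin-2 that neutrophils share with activated glia and endothelium, read 9.46 and 7.71 on the conventional arrays, against 6.29 and 6.28 on the SPF arrays (2.30 ± 0.48, adjusted p = 1 in limma). Both conventional arrays were above both SPF arrays for Lcn2, as for 16.4% of all tested probes, in contrast to the overlap seen for the 7 granule genes. Lyz2, the lysozyme of myeloid cells including microglia, read 9.26 and 7.68 on the conventional arrays, against 9.34 and 9.52 on the SPF arrays (-0.96 ± 0.43). Hp, the haptoglobin gene, differed by 0.54 ± 0.22 and was above background on 1 of 2 SPF arrays. Among neutrophil receptors and adhesion molecules 5 of 15 genes were tested, 1 higher and 4 lower, with a median of -0.28. The formyl peptide receptor gene Fpr2 differed by 0.62 ± 0.28, the G-CSF receptor gene Csf3r by -0.37 ± 0.26 and Tlr2 by -0.29 ± 0.26. Of the cytoplasmic and effector genes 8 of 18 were tested, 5 higher and 3 lower, with a median of 0.07. Lrg1, which encodes a leucine-rich glycoprotein of neutrophils, liver and endothelium, was the largest of these (1.98 ± 0.55), at 8.92 and 7.83 on the conventional arrays and 5.55 and 7.24 on the SPF arrays. S100a11 differed by -0.41 ± 0.29 and S100a6 by -0.40 ± 0.37. Of 6 granulocyte transcription factor genes on the array 4 were tested, 1 higher and 3 lower. Spi1 (which encodes PU.1), Cebpa and Cebpd differed by -0.14 ± 0.21, -0.06 ± 0.22 and -0.06 ± 0.26. Cebpb, named after its values were seen, differed by 0.05 ± 0.17. It had conventional replicate 1 highest and conventional replicate 2 lowest, an order found in 7.21% of all tested probes. Cebpe was not above background on any array.

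**Figure D4:**
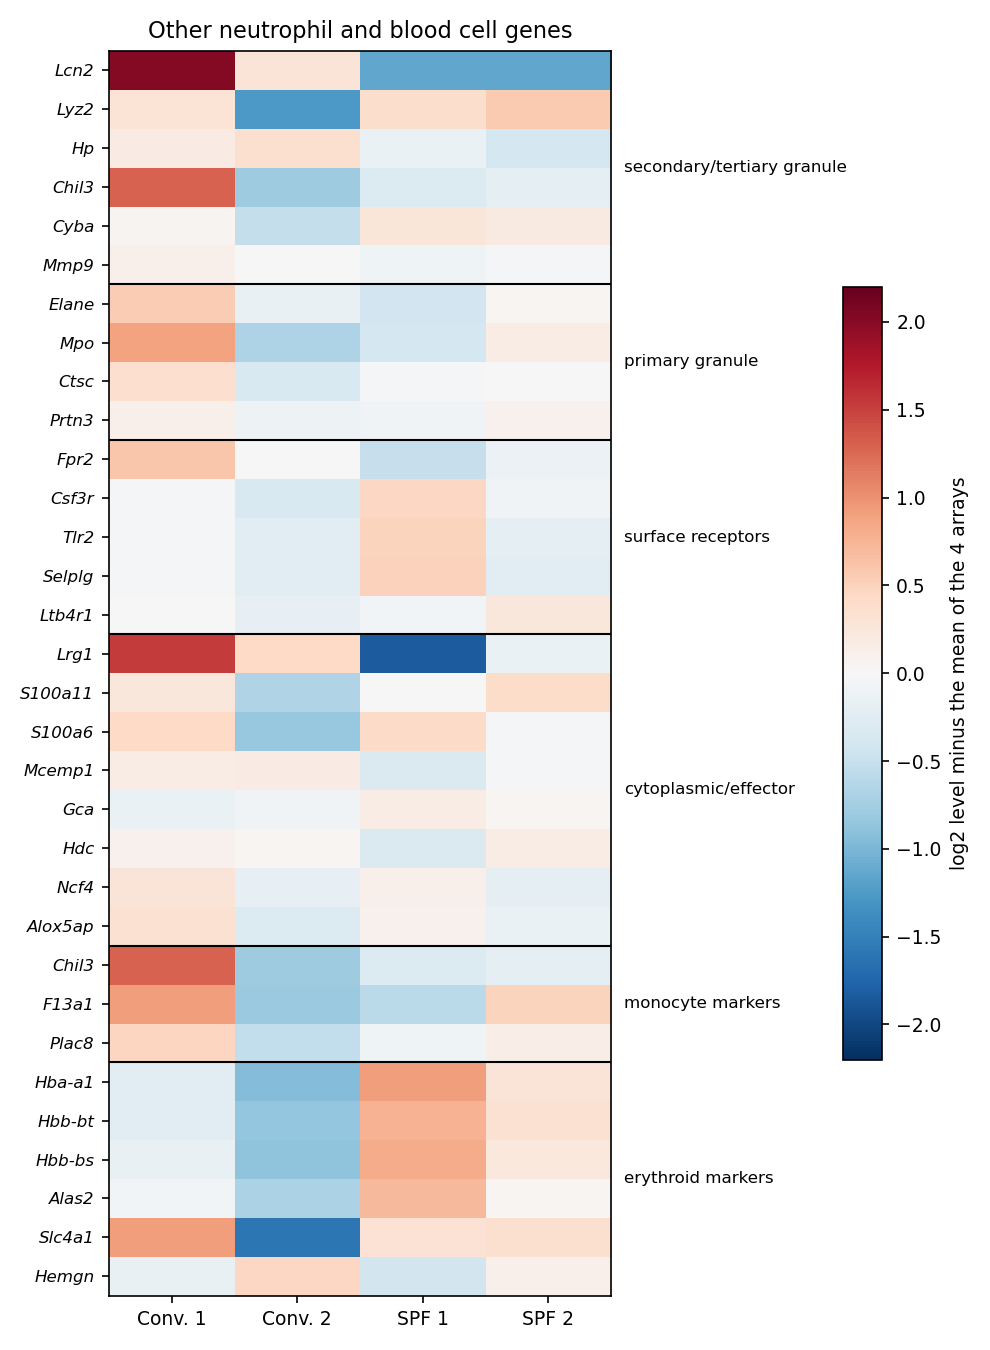
Levels of 32 gene entries from 6 lists on each array, as log2 level minus the mean over the 4 arrays (colour scale; red is above that mean, blue below; Chil3 stands in 2 lists). Mpo, Chil3 and F13a1 each have their highest value on conventional replicate 1, while Hba-a1 and Hbb-bt each have theirs on SPF replicate 1.

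Markers of other cells were read on the same arrays, and 0 of them passed limma's test. Of 5 monocyte markers on the array 3 were tested, conventional replicate 1 was highest and conventional replicate 2 lowest for all 3 (7.21% of all tested probes had that order), and their summed level (linear units after normalization) was 275.5 and 86.0 on the conventional arrays, against 110.8 and 165.8 on the SPF arrays. Chil3, a chitinase-like protein of monocytes, macrophages and neutrophils, stood at 6.78 and 4.70 on the conventional arrays and 5.18 and 5.29 on the SPF arrays, and F13a1 at 6.84 and 5.11 on the conventional arrays and 5.33 and 6.42 on the SPF arrays, with Ccr2 and Ms4a6c not above background on any array. On conventional replicate 2 only 1 of the 3, F13a1, was above background. With Chil3 and Plac8 there set to the lowest level detected on that array, the sum was 99.8 and all 3 kept the order. Of 8 red cell markers on the array 6 were tested, 5 of them with a negative difference, with summed levels of 21222 and 13106 on the conventional arrays and 43167 and 29582 on the SPF arrays. The globin genes Hba-a1 and Hbb-bt differed by -1.21 ± 0.27 and -1.09 ± 0.22. Each had both conventional arrays below both SPF arrays, as did 14.5% of all tested probes. Slc4a1, the red cell anion exchanger gene, named after its values were seen, had the array order of the granule genes in that conventional replicate 1 was highest and conventional replicate 2 lowest, with log2 levels of 8.23 and 5.73 on the conventional arrays, against 7.64 and 7.68 on the SPF arrays. For the eosinophil markers only Prg2, a granule protein, was tested of 4 (linear level 154.3 and 70.6 on the conventional arrays, against 69.8 and 47.5 on the SPF arrays), with Epx, Siglecf and Ccr3 not above background. Bone and cartilage markers (6 of 9 tested, 3 higher and 3 lower) summed to 467.8 and 440.5 on the conventional arrays and 560.8 and 713.2 on the SPF arrays. Col1a1 and Sp7, the widest of these, differed by -0.92 ± 0.58 and -0.90 ± 0.19 (a further Sp7 probe gave -0.50). Both genes were above background on both arrays of each group, while the bone genes Bglap and Dmp1 were not above background on any array. Lymphocyte markers were mostly below background, with 1 of 6 B cell markers tested (36.4 and 26.3 on the conventional arrays, 34.5 and 32.3 on the SPF arrays) and 1 of 6 T and NK cell markers (30.2 and 43.9 on the conventional arrays, 33.2 and 35.0 on the SPF arrays). Cd79b, Ms4a1, Igll1, Cd3d, Cd3g, Cd8a and Cd4 were not above background on any array. Platelet markers (3 of 6 tested) summed to 171.0 and 164.1 on the conventional arrays and 172.3 and 174.3 on the SPF arrays, and cycling cell markers (2 of 4) to 100.01 and 93.9 on the conventional arrays and 93.4 and 97.7 on the SPF arrays. Microglia and macrophage markers (7 of 9 tested, 1 higher and 6 lower) summed to 1596 and 1148 on the conventional arrays and 1822 and 1497 on the SPF arrays. Mast cell and basophil markers (2 of 6) summed to 950.5 and 555.3 on the conventional arrays, against 981.1 and 720.7 on the SPF arrays. Keratinocyte markers (4 of 6, with Krt5 and Krt6a not above background on any array) summed to 2017 and 2019 on the conventional arrays, against 1835 and 1858 on the SPF arrays. Skeletal muscle markers (6 of 8 tested) summed to 699.5 and 484.7 on the conventional arrays, against 1823 and 729.6 on the SPF arrays. Meningeal fibroblast markers (8 of 8 tested) summed to 11319 and 5027 on the conventional arrays and to 7701 and 29508 on the SPF arrays, so their highest array was SPF replicate 2. Astrocyte markers (5 of 5 tested, 3 with a positive difference) had conventional replicate 1 highest for 4 of 5, against 23.9% of all tested probes. They summed to 42562 and 25026 on the conventional arrays, against 38473 and 24435 on the SPF arrays. That array was highest for 1 of 7 microglia and macrophage, 3 of 6 endothelial, 2 of 6 neuronal and 0 of 5 oligodendrocyte markers. Endothelial markers (6 of 6 tested, 5 with a positive difference) summed to 5280.4 and 5429.6 on the conventional arrays, against 3624 and 4962 on the SPF arrays. Ly6c1, the endothelial marker with the widest difference, differed by 0.75 ± 0.17 (adjusted p = 1 in limma). Dim markers enter these sums with values at background. The part of these cells in the granule result was not tested.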

How the data were processed

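Cervical spinal cord RNA of 4 samples was hybridised to Illumina BeadChips. The deposited intensity values are bead signals without normalization, per the file headers, and the file headers also name a deposited detection p-value beside each. The authors' value table holds intensity values they normalized (lumi is named in the submitters' processing notes) and was used as an alternative. The scanner software and any genome build of the array: not given in the sources used here. Gene names came from the platform annotation, in which 34885 of 45281 probes have 1 symbol, 18 several and 10378 none.

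The function neqc of limma 3.58.1 (R 4.3.3) corrected the background from the detection p-values, added an offset of 16, applied quantile normalization and took log2. Probes with a detection p under 0.05 on at least 2 of 4 arrays were tested, each on its own, with lmFit and eBayes (trend), two-sided, Benjamini-Hochberg over all 21065. The fit was tested on simulated data. The offset reduces the fold of dim probes. The members and gene lists were chosen with earlier results of these data known. Named were all members, up to 3 genes of each functional list and 2 of each marker list by absolute difference, and the 5 nearest profiles. Alternatives covered background, offset, normalization, filter, variance model, replicate block, probe choice and each array left out. The replicate numbers are not said to pair arrays. Intervals reflect 2 arrays per group.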

Additional observations from a re-analysis of the deposited data

How the results depend on the processing

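The count of probes past the threshold stayed at 0 under 10 of 11 alternatives to the processing, and the count among members stayed at 0 under all 11. With the replicate number as a block 14 probes passed and 0 members did; the lowest adjusted p of a member was then 0.0587 (Pglyrp1). The numbers share no stated origin, so this block is an arbitrary pairing; over probes, replicate 1 minus 2 correlated at 0.22 between the groups. With 1 array left out, between 0 and 2 probes passed, 2 of them without conventional replicate 2, and 0 members. Outside the fits that left out an array, all 94 member differences kept their sign. The authors' table gave the smallest difference for each of the 9 member probes, with a median of 0.17, and 0.61 for Pglyrp1. The median was 0.25 with no background correction or with no filter on dim probes (14 probes) and 0.72 over the 5 probes at a detection p under 0.01 on all 4 arrays. The array order with conventional replicate 1 highest and conventional replicate 2 lowest held for 7 probes under all 5 other sets of values, an alternative chosen after seeing the data. With 1 array left out, S100a8 ranged from -0.33 to 1.87, S100a9 from -0.61 to 2.05, Ngp from -0.51 to 1.10, Camp from -0.62 to 1.29, Ltf from -0.26 to 1.52, Retnlg from -0.48 to 1.39 and Cd177 from -0.42 to 0.76, lowest without conventional replicate 1 and highest without conventional replicate 2. The number of arrays limits precision: the spread of the conventional pair exceeds the group difference for 7 of the 8 tested genes.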

Other observations

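Genes that draw neutrophils into tissue were mostly dim in these cords. Of 9 chemoattractant and growth factor genes on the array 2 were tested: Csf3, which encodes G-CSF, differed by -0.26 ± 0.21, and the chemokine gene Cxcl12 by 0.04 ± 0.15 (further probes gave 0.20 and 0.15). Cxcl1, Cxcl2, Cxcl3, Csf2 and Tnf were not above background on any array. Among adhesion molecules of the vessel wall, through which leukocytes leave the blood, 5 of 6 were tested, 4 of them with a positive difference (51.2% of all tested probes had one), and 0 passed limma's test. Selp, which encodes P-selectin, was above background on both conventional arrays and on neither SPF array, at least 1.15-fold higher, and it was tested through the conventional arrays alone, which fixes its direction. Pecam1 differed by 0.27 ± 0.20 (a further probe gave -0.35) and Icam2 by -0.21 ± 0.22, and Sele, the E-selectin gene, stayed at background on all 4 arrays.

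Of 6 further S100 genes tested, conventional replicate 1 was highest and conventional replicate 2 lowest for 1, against 7.21% of all tested probes. That gene, S100a1, named after its values were seen, read 11.47 and 10.84 (log2) on the conventional arrays, against 11.25 and 10.87 on the SPF arrays. S100a6, listed with the effector genes, had the same order, at 9.38 and 8.12 on the conventional arrays and 9.37 and 8.92 on the SPF arrays. S100a16 differed by -0.39 ± 0.15, S100b, a calcium-binding protein of glia, by -0.24 ± 0.24 and S100a13 by -0.24 ± 0.14, and 0 passed. Of the genes for receptors and partners of calprotectin and peptidoglycan recognition, Ager differed by -0.28 ± 0.26, Ly96 by -0.22 ± 0.24 and Cd14 by -0.03 ± 0.27, while Tlr4 had no array above background. Of the resistin-like and related antimicrobial genes only Lyz1 was tested (-0.87 ± 0.37), with conventional replicate 2 the lowest array.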
